A study of Homo sapiens with 12 samples.

Results

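The aminoacyl-tRNA synthetases examined here are 35 nuclear genes: 19 for the cytosol, whose symbols end in 1 or have a single form such as FARSA, and 16 for mitochondria, whose symbols end in 2. They were chosen by name, with no rule on measured values, but earlier results of these data were known at the time. Of the 35, 32 were read by at least 1 probe set annotated to a single gene symbol, 17 cytosolic and 15 mitochondrial, out of 11774 genes tested. The probe set with the highest mean over the arrays stood for each gene. All 32 lay above the filter on low values. MARS1, QARS1 and TARS2 had only probe sets with several symbols, so their levels were not analysed here.

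RNA levels were measured on 12 Affymetrix 3′ expression arrays in cells of the line SH-SY5Y, which comes from a human neuroblastoma and serves as a model of neurons. There were 4 groups of 3 arrays: fibrillar amyloid-β (Aβ) with a 24 h incubation, its 24 h control, oligomeric Aβ with a 6 h incubation, and its 6 h control. Aβ accumulates in plaques in Alzheimer's disease, fibrils being its insoluble aggregates and oligomers its small soluble ones. All groups share the same cell line and medium. Form and hours are confounded, since fibrils appear only at 24 h and oligomers only at 6 h. Whether an incubation means that the peptide was aged or that cells were exposed is not given in the labels. Nor do they call the replicates separate cultures, so the p-values reflect the spread between these arrays, which may be technical.

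Each synthetase joins 1 amino acid to its own tRNAs, the step that sets the genetic code. Cytosolic and mitochondrial translation use separate enzymes for most amino acids, but GARS1 and KARS1 each supply both compartments. Several cytosolic synthetases sit in a large multisynthetase complex held together by the scaffolds AIMP1, AIMP2 and EEF1E1, and the rest work outside it. When tRNAs are left uncharged, the kinase GCN2 (gene EIF2AK4) phosphorylates eIF2α, and the transcription factor ATF4 then raises the genes of amino acid supply, many cytosolic synthetases among them. In neurons the cytosolic enzymes are known from disease: variants of GARS1, YARS1, AARS1, HARS1 and WARS1 cause inherited neuropathies of peripheral axons.

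Promoter sequence shows which of these genes carry the motif that ATF4 binds together with C/EBP proteins. RefSeq promoters of GRCh38.p14, from 250 bases before to 50 after each listed start, matched 30 of the 35 members. LARS1, VARS1, YARS1, AARS2 and VARS2 had no promoter in this set, so theirs were not searched for any motif. The core TGATGNAA, or TTNCATCA on the other strand, was present in 8 of these 30, against 4.46% of 27305 genes with the same windows. Within the 250 bases before the start alone it was present in 4 members (13.3%), against 3.89% of genes. The 8 sites follow, each 28 bases on the strand of its gene, with the match in capitals. They lie at chr5:33440957-33440984 (TARS1, plus strand), chr7:30594835-30594862 (GARS1, plus), chr9:92293693-92293720 (IARS1, minus), chr11:3057408-3057435 (CARS1, minus), chr12:57488054-57488081 (MARS1, plus), chr16:70289676-70289703 (AARS1, minus), chr18:57621805-57621832 (NARS1, minus) and chr12:32756077-32756104 (YARS2, minus).
TARS1: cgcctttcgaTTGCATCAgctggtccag
GARS1: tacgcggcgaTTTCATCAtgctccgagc
IARS1: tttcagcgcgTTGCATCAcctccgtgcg
CARS1: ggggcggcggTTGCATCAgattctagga
MARS1: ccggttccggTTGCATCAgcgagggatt
AARS1: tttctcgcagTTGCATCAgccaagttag
NARS1: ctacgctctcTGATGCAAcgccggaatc
YARS2: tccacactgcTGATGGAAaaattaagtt
The same 8 letters, TTGCATCA, occur in TARS1, IARS1, CARS1, MARS1 and AARS1, and NARS1 holds them on the opposite strand. The matches of TARS1, CARS1, MARS1, NARS1, IARS1 and GARS1 begin within 33 bases of a listed start, and those of AARS1 and YARS2 begin upstream, at positions −187 and −197 counted from it. The GARS1 and TARS1 matches belong to the second of their listed starts.

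A second stretch is shown because 1 pair of cytosolic and mitochondrial genes shares it. HARS1, on the minus strand, and HARS2, on the plus strand, are divergent neighbours whose listed starts lie 84 bases apart on chromosome 5. The bases between these starts (chr5:140691371-140691454, plus strand) hold none of the motifs searched.
HARS1-HARS2: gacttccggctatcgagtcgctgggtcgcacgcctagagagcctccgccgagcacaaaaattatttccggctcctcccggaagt
The 250 bases before the outermost listed start of WARS1 (chr14:100376328-100376577, minus strand), the member with the largest time difference among the controls, are these.
WARS1: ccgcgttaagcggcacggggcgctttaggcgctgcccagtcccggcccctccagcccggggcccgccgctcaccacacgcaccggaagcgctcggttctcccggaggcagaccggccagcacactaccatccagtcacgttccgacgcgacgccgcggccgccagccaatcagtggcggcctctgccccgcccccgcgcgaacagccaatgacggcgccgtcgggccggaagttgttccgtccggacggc
They hold no match to the C/EBP-ATF core, to the core bound by NRF1 (GCGCA, any base, then GCGC), or to AANATGGCG, the core bound by YY1. Both of these factors serve many housekeeping and mitochondrial genes. In the 250-base windows the NRF1 core was present in 4 members (SARS1, TARS1, IARS2 and MARS2), against 6.2% of genes. The YY1 core was present in 2 (FARSA and NARS1), against 1.67%. In the 300-base windows each of these 2 cores was present in 6 of 30 members, against 6.98% of genes for NRF1 and 3.85% for YY1. A match is a stretch of letters, and no binding was measured.

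The values are log2 MAS5 signals, so a difference of 1 is a doubling of signal. The median over all probe sets was 3.89 to 4.12 per array. Precision is limited by having 3 arrays a group. The noradrenergic markers of the line were present, 8 of 9 above the filter with TH, tyrosine hydroxylase, below it. Epithelial markers passed it in 1 of 3 cases, blood or endothelial markers in 1 of 4 and glial markers in 0 of 4. RNA measures differed between groups. The 18S ribosomal RNA probe set read 11.8 to 11.9 in fibrillar arrays and 11.4 to 11.8 in 24 h controls, against 10.1 to 10.7 in oligomeric arrays and 9.31 to 10.3 in 6 h controls. The 3′ less 5′ difference of GAPDH, which grows as RNA degrades, was 0.49 to 0.81 in fibrillar arrays and 0.47 to 0.52 in 24 h controls, against 0.66 to 0.80 in oligomeric arrays and 0.77 to 0.83 in 6 h controls. It was thus apart between the hours in the controls, while fibrillar and oligomeric arrays overlapped, and 2 of 3 fibrillar arrays lay above their controls.

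**Figure D1:**
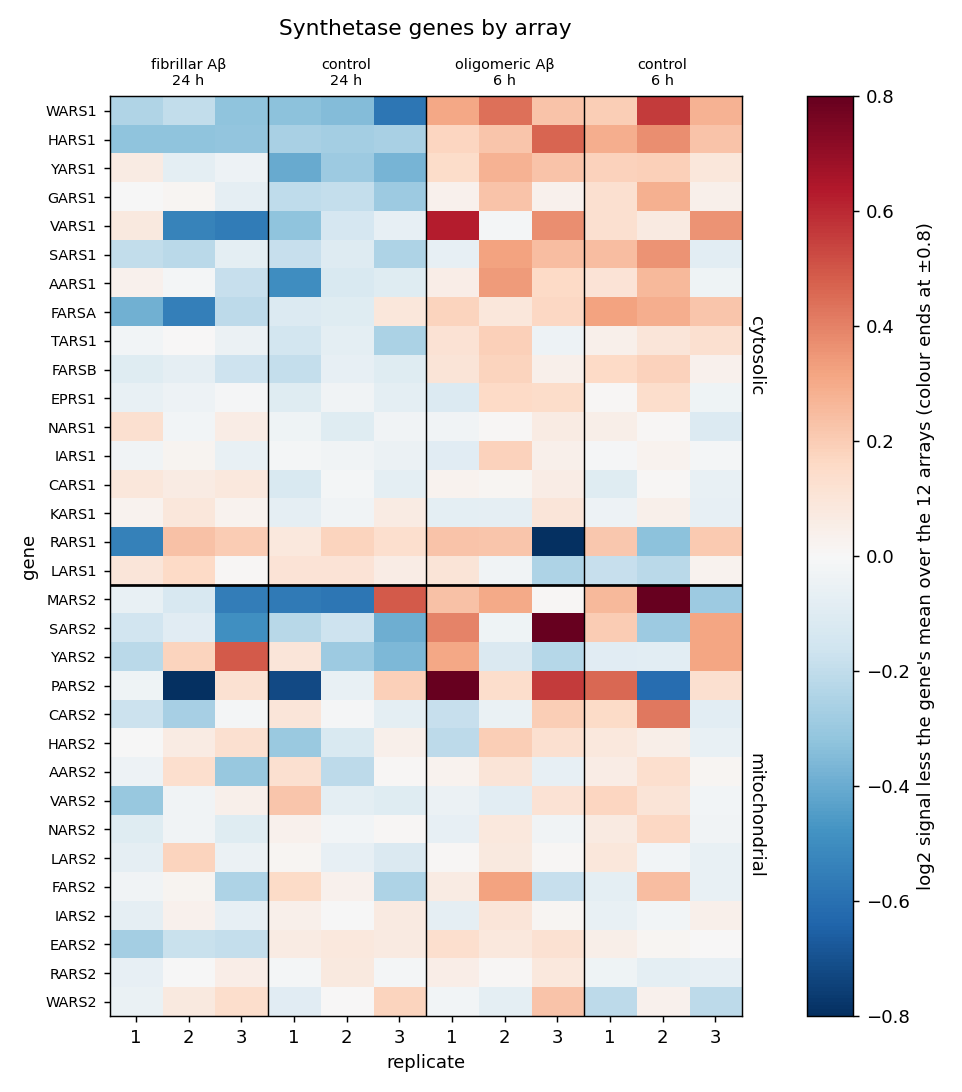
Heat map of 32 synthetase genes (rows) in 12 arrays (columns, 3 per group). Colour is the log2 signal less the mean of that gene over all arrays. Genes are ordered within each compartment by the difference of 24 h less 6 h controls. The upper cytosolic rows are mostly blue in the 24 h columns and red in the 6 h columns. YARS1 and GARS1 are paler in the fibrillar columns than in the 24 h control columns.

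More synthetases passed the test between the hours than between Aβ and control, and the same held over all genes. With fibrils 1.19% of all genes passed and with oligomers 0%, against 11.7% between the controls. Controls of 24 h had lower RNA levels of 5 members than controls of 6 h: WARS1, HARS1, YARS1, GARS1 and TARS1, the enzymes for tryptophan, histidine, tyrosine, glycine and threonine. All 5 are cytosolic and work outside the multisynthetase complex. No member was higher, and no mitochondrial synthetase passed. Less RNA per cell and fewer cells that express a gene cannot be told apart in bulk RNA. In this comparison 11.7% of all 11774 genes passed a limma adjusted p of 0.05, 3.76% higher and 7.92% lower.

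WARS1, which charges tryptophan and is also known as an interferon-inducible gene, had log2 signals of 7.75, 7.73 and 7.50 in 24 h controls, against 8.27, 8.63 and 8.35 in 6 h controls. The groups did not overlap. The difference was −0.76 (SE 0.11, limma adjusted p = 0.000327), a signal 0.591 times that of the 6 h controls. A dimmer probe set of WARS1 differed by −0.40 (SE 0.19).

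HARS1, the histidine enzyme, read 9.13, 9.12 and 9.14 in 24 h controls, against 9.69, 9.76 and 9.62 in 6 h controls. The 24 h values were nearly equal and all below the 6 h values. The difference was −0.56 (SE 0.08, limma adjusted p = 0.000304). HARS2, which starts on the other side of the 84 bases printed above, read 8.62, 8.79 and 8.96 in 24 h controls, against 9.00, 8.97 and 8.86 in 6 h controls, with overlap and a difference of −0.15 (SE 0.11, limma adjusted p = 0.394).

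YARS1, the tyrosine enzyme, read 8.16, 8.27 and 8.19 in 24 h controls, against 8.75, 8.75 and 8.65 in 6 h controls, a difference of −0.51 (SE 0.08, limma adjusted p = 0.000577). The groups were fully apart. Averaged with its second probe set, which had a mean of 4.69 and differed by −0.09 (SE 0.37), the call was lost (limma adjusted p = 0.319).

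GARS1, the glycine enzyme of both compartments, read 10.24, 10.25 and 10.15 in 24 h controls, against 10.57, 10.73 and 10.48 in 6 h controls. Its difference was −0.38 (SE 0.08, limma adjusted p = 0.00441), again with no overlap. TARS1, the threonine enzyme, had means of 9.85 ± 0.089 in 24 h controls and 10.10 ± 0.043 in 6 h controls (SD, n = 3 each), a difference of −0.25 (SE 0.07, limma adjusted p = 0.0358). The call of TARS1 was the least firm: it was lost without 24 h control replicate 1 or 3 or any single 6 h control (limma adjusted p up to 0.153), and with no filter, a constant prior variance or the 3′ less 5′ covariate.

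**Figure D2:**
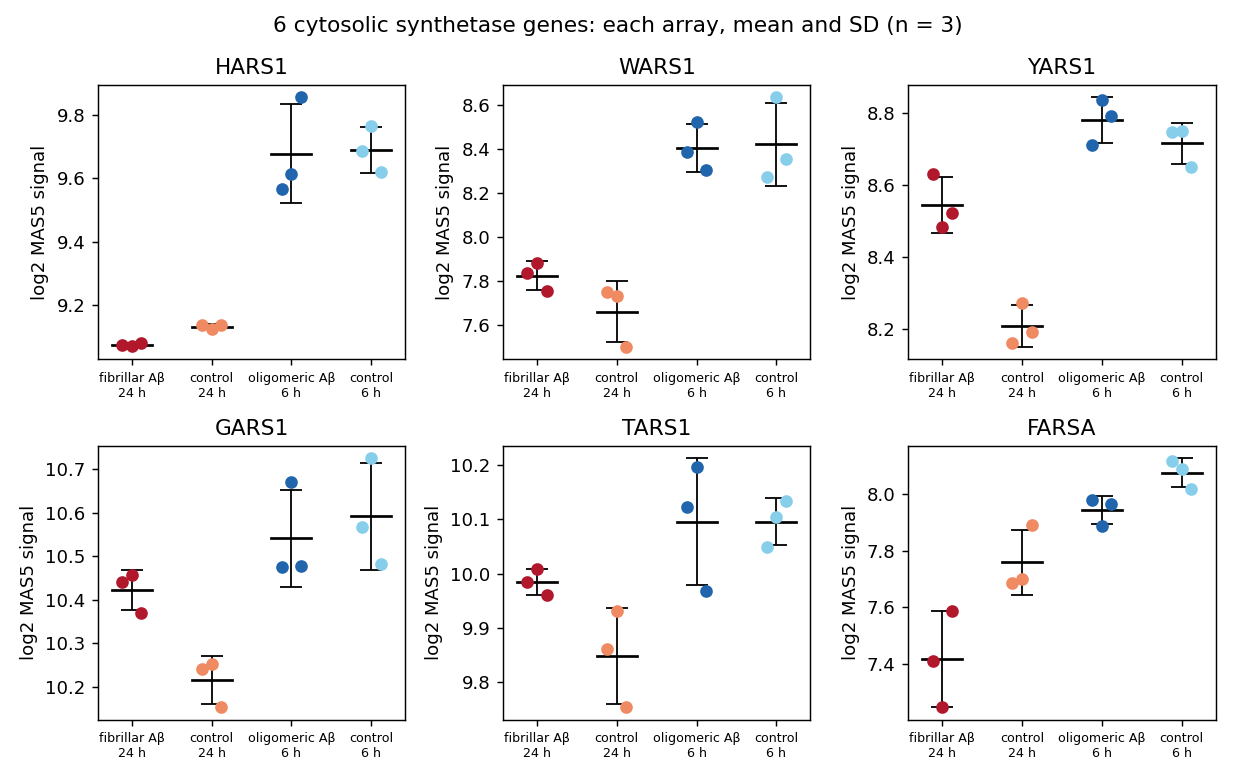
Log2 MAS5 signal of 6 cytosolic synthetase genes in each array (points), with the group mean (line) and SD (bars, n = 3). WARS1 and HARS1 lie lower in both 24 h groups than in both 6 h groups. The fibrillar values of YARS1 lie above its 24 h control values, and those of FARSA lie below its 24 h control values.

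The other cytosolic enzymes outside the complex had differences of the same sign that did not pass. FARSA and FARSB, the α and β subunits of the phenylalanine enzyme, differed by −0.32 (SE 0.10) and −0.25 (SE 0.08), with limma adjusted p-values of 0.0508 and 0.0522. SARS1, for serine, and AARS1, for alanine, both differed by −0.35, with adjusted p-values of 0.0551 and 0.0686. VARS1, for valine, differed by −0.36 (SE 0.18, adjusted p = 0.209), while CARS1, for cysteine, and NARS1, for asparagine, differed by −0.02 and −0.04. Over the 12 outside the complex the median difference was −0.35, all 12 were negative (52.6% of all genes were), and in 10 the 24 h values all lay below the 6 h values. Among all genes 18.9% had 24 h values fully below the 6 h values, and the median difference was −0.02.

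The 5 measured synthetases of the complex had a median of 0.01. With limma 0 of 5 passed in either direction, and 1 of them had an unadjusted p under 0.05. Among all genes these shares were 11.7% and 26.6%, and 5 genes are too few to be told apart from them. KARS1, the lysine enzyme of both compartments, read 12.20, 12.24 and 12.33 in 24 h controls, against 12.23, 12.30 and 12.20 in 6 h controls. EPRS1, a single protein that charges glutamate and proline, differed by −0.11 (SE 0.08), and IARS1, for isoleucine, by −0.03 (SE 0.07). LARS1, for leucine and also a leucine sensor of the mTORC1 pathway, was the only cytosolic member with its 24 h values fully above the 6 h values, at 0.22 (SE 0.09, limma adjusted p = 0.122), as 13.7% of all genes were. It was called higher as the mean of its 4 probe sets (limma adjusted p = 0.038), of which a dim one with a mean of 4.19 differed by 1.63. RARS1, for arginine, varied most, with single low arrays in 3 groups: 10.03 in fibrillar replicate 1, 9.73 in oligomeric replicate 3 and 10.24 in 6 h control replicate 2, against 10.65 to 10.80 in the other 9 arrays. The scaffold AIMP1 differed by −0.07 (SE 0.09), and AIMP2 and EEF1E1 were not read. The difference between the lists in and outside the complex was not tested.

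The 15 mitochondrial synthetases had a median of −0.07 between the same controls, against −0.25 for the 17 cytosolic ones. None was called by limma, and 0 of 15 had an unadjusted p under 0.05, where 26.6% of all genes did. WARS2, the mitochondrial tryptophan enzyme, had the highest difference of this group, 0.16 (SE 0.16). MARS2, for methionine, had the lowest, −0.50 (SE 0.36), at a mean level of 4.48, close to the filter of 3.78. EARS2, RARS2 and IARS2, for glutamate, arginine and isoleucine, differed by 0.05, 0.08 and 0.05. Among 12 pairs of a cytosolic gene and its mitochondrial partner, the difference within each array was 1.98, 1.86 and 1.46 for WARS1 less WARS2 in 24 h controls, against 2.62, 2.74 and 2.70 in 6 h controls. For HARS1 less HARS2 it was 0.51, 0.33 and 0.17 in 24 h controls, against 0.68, 0.80 and 0.76 in 6 h controls. LARS1 less LARS2 went the other way, at 2.27, 2.35 and 2.35 in 24 h controls, against 1.90, 1.98 and 2.26 in 6 h controls. In these 3 of the 12 pairs the hours were fully apart (p = 0.1 by a two-sided exact permutation test, which cannot go lower with 3 arrays a side, and 0.4 when adjusted over 12 pairs). Over all genes, taken singly and not as pairs, 32.6% had these controls fully apart in either direction. With fibrils against control 3 of the 12 pairs lay fully above and 1 fully below, and with oligomers 0. Over all genes, again taken singly, 19.7% were fully apart in either direction with fibrils and 7.36% with oligomers. The pairs were chosen after the data had been seen.

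**Figure D3:**
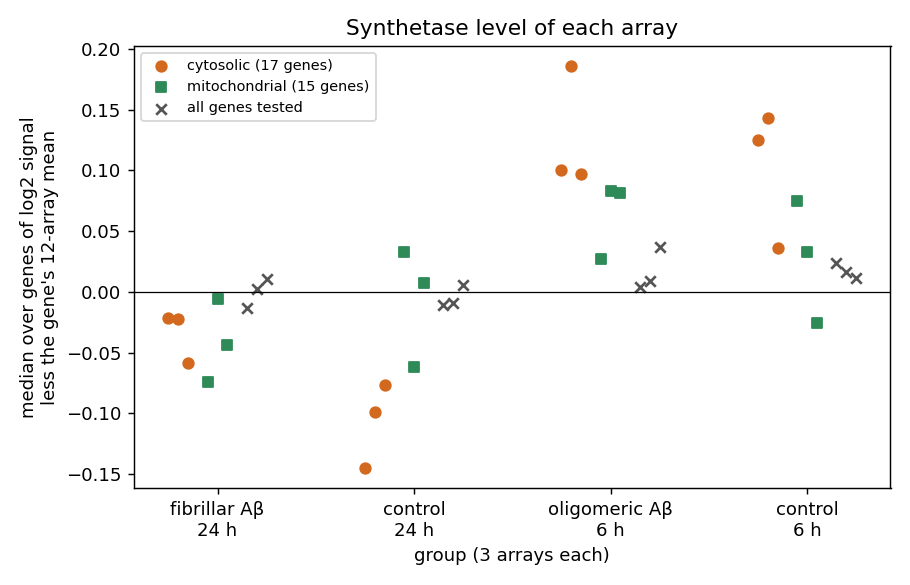
Median over genes of the log2 signal less the 12-array mean of each gene, for cytosolic synthetases (circles), mitochondrial synthetases (squares) and all genes tested (crosses), 1 point per array. The cytosolic medians lie between −0.15 and −0.08 in 24 h controls and between 0.04 and 0.14 in 6 h controls. All-gene medians stay within 0.04 of 0.

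The 18S signal was higher in both 24 h groups than in both 6 h groups, and the GAPDH difference was lower at 24 h in the controls only. The 3′ less 5′ covariate was the mean of the differences of GAPDH and ACTB. That of ACTB was 2.34 to 2.65 in 24 h controls and 2.82 to 3.25 in 6 h controls. It was 2.48 to 3.06 in fibrillar arrays and 2.61 to 2.88 in oligomeric arrays. With the covariate 467 genes were called in place of 1375, and WARS1, HARS1, GARS1 and YARS1 still passed. The part of 18S in the result was not tested. Centring each array on its median moved the median of all genes in this comparison to −0.15. On that scale the cytosolic median was −0.38 and the mitochondrial median −0.20, and 9 members were called lower. The share of called genes that were higher was then 7.33%, against 32.2% without centring.

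Treated arrays give a second view of the hours with no array in common with the controls, in a comparison added after the data had been seen. In it the form of Aβ changed along with the hours. Fibrillar 24 h arrays had lower levels than oligomeric 6 h arrays for 6 members, and 15.1% of all genes passed, 8.61% lower. HARS1 (−0.61), WARS1 (−0.58) and YARS1 (−0.24) were lower here as in the controls, where 4.37% of all genes were lower in both. HARS1 read 9.07, 9.07 and 9.08 in fibrillar arrays, against 9.56, 9.61 and 9.86 in oligomeric arrays (limma adjusted p = 0.000221). WARS1 read 7.84, 7.88 and 7.75 in fibrillar arrays, against 8.39, 8.52 and 8.30 in oligomeric arrays (limma adjusted p = 0.00207). YARS1, at an adjusted p of 0.0491, passed in 4 of 12 other settings and 2 of 6 fits without 1 array.

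The other 3 members called in that comparison were FARSA, VARS1 and EARS2. FARSA read 7.41, 7.25 and 7.59 in fibrillar arrays, against 7.98, 7.89 and 7.96 in oligomeric arrays, a difference of −0.53 (SE 0.10, limma adjusted p = 0.00266). VARS1 differed by −0.67 (SE 0.18, limma adjusted p = 0.0192), but its groups overlapped, and 4 of the 6 fits without 1 array lost the call. EARS2, the only mitochondrial synthetase called in any comparison, differed by −0.33 (SE 0.09, limma adjusted p = 0.0227). Its call was lost with the mean of its 4 probe sets (adjusted p = 0.697), under median centring, with the 2 groups alone and in 4 of the 6 fits without 1 array. GARS1 and TARS1 differed by −0.12 and −0.11 and did not pass, while the 5 complex members had a median of 0.07.

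**Figure D4:**
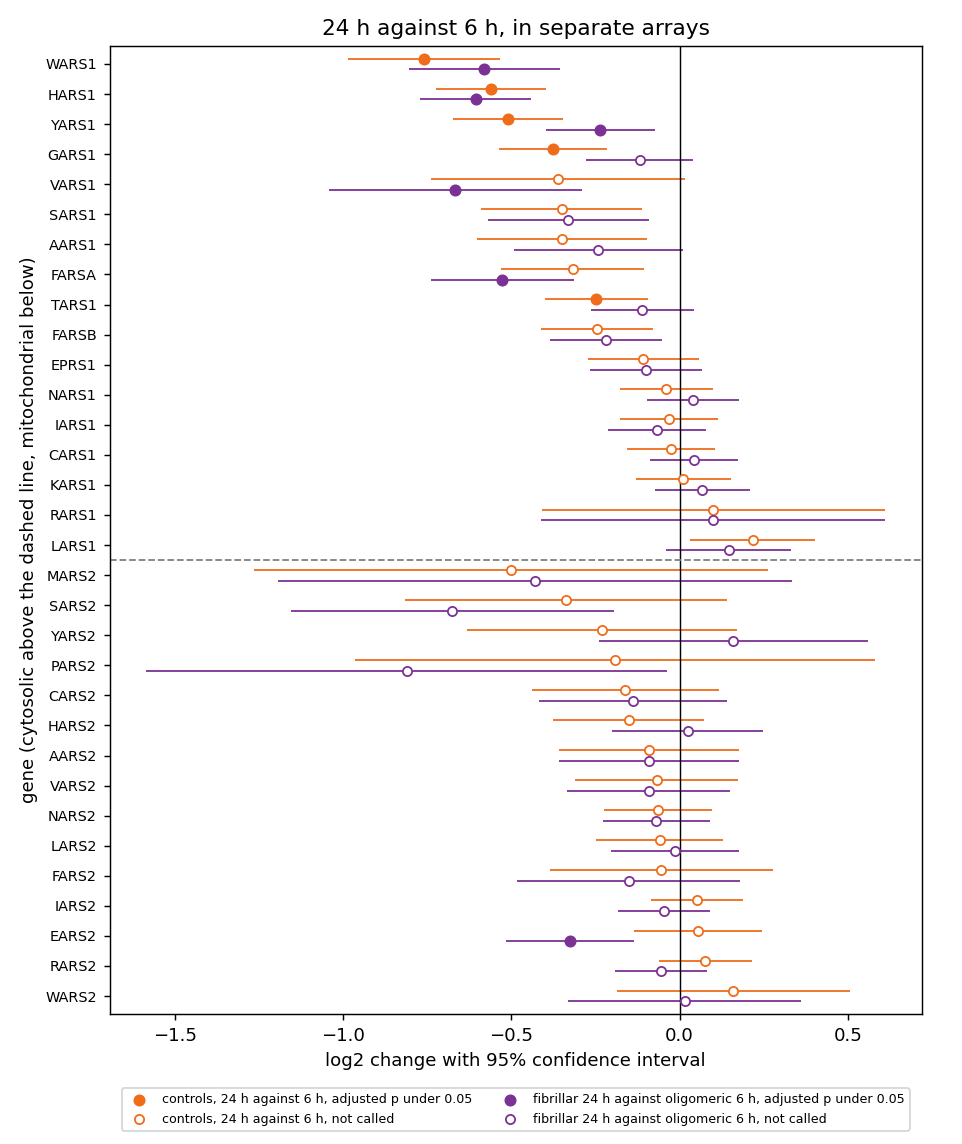
Log2 difference of 24 h less 6 h for each synthetase gene, with its 95% confidence interval, in controls (orange) and in fibrillar 24 h against oligomeric 6 h arrays (purple). Filled points passed a limma adjusted p of 0.05. HARS1, WARS1 and YARS1 are filled in both, and the dashed line separates cytosolic from mitochondrial genes.

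Fibrillar Aβ was compared with control at 24 h to ask which synthetases differ with the insoluble aggregates. YARS1 was the only member called, and it was higher. Among all genes 1.19% passed, 0.798% higher and 0.391% lower. YARS1 read 8.63, 8.48 and 8.52 in fibrillar arrays, against 8.16, 8.27 and 8.19 in 24 h controls. The groups were fully apart, with a difference of 0.34 (SE 0.08, 95% confidence interval 0.17 to 0.50, limma adjusted p = 0.0454), a signal 1.26 times that of the control. The call was close to the threshold. It passed in 6 of 12 other settings and in 1 of 6 fits with a 24 h array removed (fibrillar replicate 2), and was lost with the 3′ less 5′ covariate, with limma adjusted p-values of 0.0234 to 0.37 over these settings and fits. The 6 h arrays enter the shared estimate of spread. Without oligomeric replicate 2 or any single 6 h control the call was also lost, while it held without oligomeric replicate 1 or 3. The second probe set of YARS1 differed by 0.43 (SE 0.37). These comparisons and the one between controls share the 24 h control arrays, in which YARS1 was lowest: its fibrillar mean of 8.54 lay between the means of 8.21 in 24 h controls and 8.72 in 6 h controls.

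Next by p-value among the higher members were GARS1, CARS1 and TARS1. GARS1 read 10.44, 10.46 and 10.37 in fibrillar arrays, against 10.24, 10.25 and 10.15 in controls, a difference of 0.21 (SE 0.08, limma adjusted p = 0.218). CARS1 read 9.92, 9.90 and 9.92 in fibrillar arrays, against 9.71, 9.82 and 9.76 in controls, a difference of 0.15 (SE 0.06, adjusted p = 0.269), but a dimmer probe set differed by −0.16 (SE 0.19). TARS1 differed by 0.14 (SE 0.07, adjusted p = 0.426). In 6 of the 17 cytosolic members (YARS1, GARS1, CARS1, TARS1, NARS1 and WARS1) the fibrillar values all lay above the controls, and in FARSA and HARS1 they all lay below. Among all genes 10.9% lay fully above and 8.73% fully below. The 12 synthetases described as ATF4-induced, 11 of them measured, had a median of 0.14 with 10 of 11 positive and 1 called, against a median of −0.00053 and 49.9% positive over all genes. The comparison of controls shares the 24 h control arrays with this one. In it the same list had a median of −0.25, with 10 of 11 negative and 4 called lower. Those 4 are WARS1, YARS1, GARS1 and TARS1, already described above. Among all genes the median there was −0.02, with 52.6% negative and 7.92% lower.

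Lower values did not pass. FARSA read 7.41, 7.25 and 7.59 in fibrillar arrays, against 7.69, 7.70 and 7.89 in 24 h controls, a difference of −0.34 (SE 0.10, limma adjusted p = 0.124). Its other probe set differed by −0.45 (SE 0.17). FARSB, whose protein pairs with that of FARSA in a single enzyme, had means of 8.34 ± 0.048 in fibrillar arrays and 8.33 ± 0.064 in controls (SD, n = 3 each). EARS2 read 7.09, 7.18 and 7.17 in fibrillar arrays, against 7.43, 7.45 and 7.43 in controls. These groups were fully apart, at −0.29 (SE 0.09, limma adjusted p = 0.147), and of its other 3 probe sets 2 were lower and 1 was higher. The mitochondrial median was −0.05, with 1 of 15 at an unadjusted p under 0.05 (14.2% of all genes), and the cytosolic median was 0.03.

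**Figure D5:**
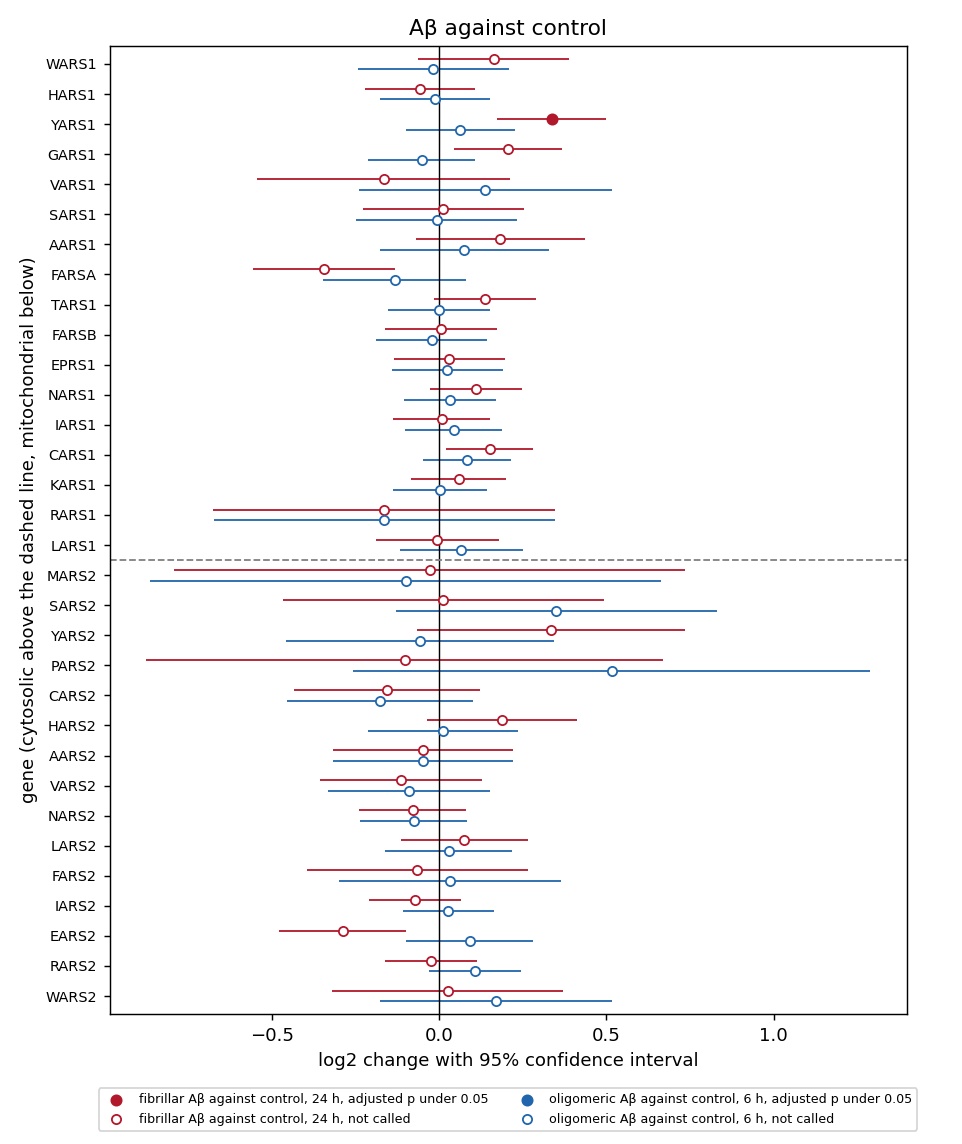
Log2 difference with its 95% confidence interval for each synthetase gene, fibrillar Aβ less control at 24 h (red) and oligomeric Aβ less control at 6 h (blue). The only filled point, which passed a limma adjusted p of 0.05, is YARS1 with fibrils.

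With oligomeric Aβ at 6 h no member was called, and 0 of 11774 genes passed with limma, while 327 (2.78%) had an unadjusted p under 0.05. None of the 32 members had one. The cytosolic median was 0.0028 and the mitochondrial median 0.03. YARS1 differed by 0.06 (SE 0.08, 95% confidence interval −0.10 to 0.23), and GARS1 by −0.05 (SE 0.08). CARS1, EARS2 and RARS2 lay fully above the controls, at 0.08, 0.09 and 0.11, and FARSA fully below, at −0.13, where 3.6% and 3.76% of all genes did. PARS2, the mitochondrial proline enzyme, read 5.58, 4.88 and 5.30 with oligomers, against 5.21, 4.14 and 4.87 in 6 h controls, a difference of 0.52 with an SE of 0.36. SARS2, its serine counterpart, differed by 0.35 (SE 0.23). PARS2 and MARS2 had the widest intervals of the members in this comparison.

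The fibrillar response less the oligomeric response, each against its own control, was not called for any member, and 0.0425% of all genes were called. An unadjusted p under 0.05 was seen in 8.53% of all genes and in 3 members: EARS2 (−0.38, SE 0.13, limma adjusted p = 0.356), YARS1 (0.27, SE 0.11, adjusted p = 0.464) and GARS1 (0.26, SE 0.11, adjusted p = 0.489). A difference between the preparations was therefore not shown for any synthetase, and the design cannot tell form from hours.

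Genes around the synthetases were read from lists of the same pathway. In GCN2 and eIF2α signalling, 9 genes, fibrillar arrays had 1 gene higher and 0 lower. Among all genes 0.798% were higher and 0.391% lower. PPP1R15B, a subunit of the phosphatase that acts on eIF2α, read 9.73, 9.57 and 9.71 in fibrillar arrays, against 9.42, 9.32 and 9.28 in controls (0.33, limma adjusted p = 0.0398). ATF4 itself read 10.15, 10.05 and 9.91 in fibrillar arrays, against 9.76, 9.76 and 9.86 in controls, a difference of 0.24 that did not pass (limma adjusted p = 0.213). EIF2AK4 differed by −0.07. In 24 h less 6 h controls the same list had EIF2S1, the α subunit of eIF2, lower at −0.29 (limma adjusted p = 0.00762). There 7.92% of all genes were lower. ATF4 differed by −0.19 between these controls (limma adjusted p = 0.187).

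The list of ATF4 targets in amino acid supply and stress had 25 measured genes. With fibrils 4 were higher and 0 lower, with a median of 0.23, where 0.798% of all genes were higher. ASNS, which makes asparagine, read 9.83, 9.67 and 9.72 in fibrillar arrays, against 9.34, 9.41 and 9.35 in controls, with no overlap (0.37, SE 0.08, limma adjusted p = 0.0321). DDIT3, the stress factor CHOP, was higher by 0.95 (limma adjusted p = 0.0454), and CEBPB and ATF3, both transcription factors, by 0.62 and 1.10. In each of them fibrillar replicate 1 was highest and replicate 2 lowest, with ATF3 at 8.27, 6.70 and 7.42. The GAPDH 3′ less 5′ difference had the same order (0.81, 0.49 and 0.64), and its part was not tested. Over all genes, fibril calls fell from 140 to 39 with the 3′ less 5′ covariate and to 7 with a constant prior variance. Calls of genes outside the members under other settings are not given here. Between the controls 7 of these genes were lower at 24 h and 3 higher, with a median of −0.15, where 7.92% of all genes were lower and 3.76% higher. SHMT2, the mitochondrial serine hydroxymethyltransferase, was lower by −0.70, SLC3A2, the heavy chain of amino acid exchangers, by −0.98, SLC1A4, a neutral amino acid transporter, by −0.86 and ASNS by −0.38, while PSPH, which makes serine, was higher by 0.42. With oligomers ASNS differed by −0.02 and 0 of the 25 passed with limma. An unadjusted p under 0.05 was seen in 3 of the 25, against 2.78% of all genes. Differences in the list ran from −0.55 to 0.38. The lowest was that of DDIT3, at 5.62, 5.26 and 5.44 with oligomers, against 5.69, 6.05 and 6.23 in 6 h controls. The fibril comparison and the comparison of controls share the 24 h control arrays here too.

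Among the partners of mitochondrial translation, MTIF3, an initiation factor, was lower with fibrils. It read 7.99, 7.66 and 7.59 in fibrillar arrays, against 8.13, 8.20 and 8.33 in controls (−0.47, limma adjusted p = 0.0457), and no other of the 12 measured factors passed. Their median was −0.12. Among all genes 0.391% were lower with fibrils. TUFM, the mitochondrial elongation factor that carries charged tRNA to the ribosome, read 9.75, 9.49 and 9.65 in 24 h controls, against 10.09, 10.18 and 10.03 in 6 h controls (−0.47, limma adjusted p = 0.00228). QRSL1, the subunit of the amidotransferase that completes glutamine tRNA in mitochondria, was higher there by 0.45 (limma adjusted p = 0.0123). Between these controls 7.92% of all genes were lower and 3.76% higher. In tRNA maturation and proofreading, 12 measured genes, ELAC2, which trims the 3′ end of tRNA precursors, was lower with fibrils, at 6.76, 6.86 and 6.52 in fibrillar arrays, against 7.30, 7.20 and 7.31 in controls (−0.56, limma adjusted p = 0.0366). None of that list was called between the controls with limma, where 2 had an unadjusted p under 0.05. Among all genes these shares were 11.7% and 26.6%. Of the 4 measured cytosolic elongation factors 0 passed with limma in either comparison, with 1 between the controls at an unadjusted p under 0.05. So few genes cannot be told apart from the shares of all genes. In 24 h less 6 h controls EEF1A1, which carries charged tRNA in the cytosol, differed by 0.24 (limma adjusted p = 0.0715).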

How the data were processed

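Per the submitters' processing notes, MAS5 (no version given) produced the deposited log2 signals of probe sets. The 2% to 98% trimmed mean of the linear signal was equal between arrays (100.03), so the values were not normalized again. Detection calls were not used here. Probe sets with 1 gene symbol and a 12-array mean no lower than the median of all (3.78 on the log2 scale, or 13.8 as a signal) entered, the one with the highest mean standing for each gene, which gave 11774 genes. A group-means model over the 12 arrays was fitted with limma 3.58.1 in R 4.3.3 (with the data.table package, version 1.17.8), with a prior variance that followed the level, and a gene was called where its p-value, adjusted by Benjamini-Hochberg, was under 0.05. Each SE uses a spread shared by the 4 groups. In simulated data of this size, 100 genes were changed 1.5-fold and 100 were changed 2-fold. Of these, 52% and 83% were recovered for fibrils, and 55% and 76% between the controls, over 11774 genes. Both simulations had the same settings apart from the group changed, so their rates differ by random draw. The number of genes changed was not matched to either real comparison, so the rates are not the sensitivity of each.

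Members, lists and tests were chosen with earlier results of these data known. All members could be named. Members called, and up to 4 a direction with the smallest p, have statistics. Of other lists, up to 2 genes a direction were named, with ATF4, ASNS, DDIT3, EIF2AK4 and AIMP1. The remaining genes named from those lists, ATF3, CEBPB and SLC3A2, were chosen after their values were seen. Promoter sequences were those of RefSeq (GRCh38.p14), searched on both strands.

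Alternatives were centring on the array median, quantile normalization, a filter at the 75th percentile or none, all probe sets of a gene averaged, a constant or robust prior variance, array weights, a fit of only the compared groups, the replicate block, log2 of the signal plus 16, the 3′ less 5′ covariate, and each array left out in turn.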

Additional observations from a re-analysis of the deposited data

How the results depend on the processing

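Results under another setting were counted for the members called in each comparison and those with the smallest p in each direction. Of these results 756 kept direction and side of the threshold, 44 lost a call, 2 gained one and 9 changed sign. The count leaves out AARS1, SARS1, FARSA and FARSB between the controls, where they did not pass. Each of them was called lower there under median centring, with array weights and with the replicate block. WARS1, HARS1 and GARS1 between the controls, and HARS1, WARS1 and FARSA between fibrillar and oligomeric arrays, were called in every setting and every fit without 1 array. With 3 arrays a group, calls near the threshold turn on single arrays, dim probe sets add noise, and form and hours cannot be told apart. The causes of the shifts below were not tested.

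Fibrillar Aβ against control at 24 h gave 62 calls with the mean of probe sets, 79 with no filter, 268 with array weights, 7 with a constant prior variance, 35 with the 2 groups alone, 39 with the 3′ less 5′ covariate and 14 to 185 without 1 array. Members called higher were 0 under median centring, the mean of probe sets, a constant prior, no filter, the 2 groups alone and the covariate, and 0 to 1 without 1 array. Their cytosolic median was 0.10 and the mitochondrial 0.025 under median centring, and the mitochondrial −0.10 with the mean of probe sets. Without 1 array the cytosolic median was 0.017 to 0.070. Of the calls, 86.1% were higher under median centring, 53.2% with the mean of probe sets and 48.7% with the covariate, against 67.1%. For oligomeric Aβ, median centring moved the cytosolic median to −0.062 and the mitochondrial to −0.037, and the covariate moved the mitochondrial median to −0.016.

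The fibrillar less the oligomeric response gave 3 calls with quantile normalization, 13 under median centring, 3 with the mean of probe sets, 0 with a constant prior, 27 with array weights, 3 with the replicate block, 8 with log2 of the signal plus 16, 1 with the covariate and 0 to 64 without 1 array. Its cytosolic median was 0.17 and its mitochondrial median 0.11 under median centring, where the median of all genes was 0.15. The mitochondrial median was −0.10 with the mean of probe sets and −0.085 with array weights. Without 1 array the medians were −0.0080 to 0.073 (cytosolic) and −0.11 to 0.027 (mitochondrial).

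Between 24 h and 6 h controls, 467 genes were called with the covariate and 719 to 1106 without 1 array. Members called lower were 9 under median centring, 8 with the filter at the 75th percentile, 9 with array weights and 4 to 6 without 1 array, and 2 (LARS1 and RARS2) were higher with the mean of probe sets. Medians were −0.38 (cytosolic) and −0.20 (mitochondrial) under centring, and −0.15 (mitochondrial) with the covariate. In fibrillar against oligomeric arrays the cytosolic median was −0.16 with array weights. Without 1 array that comparison had 992 to 1891 calls, 3 to 6 members lower, and medians of −0.23 to −0.060 (cytosolic) and −0.10 to −0.045 (mitochondrial).

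Signs turned for CARS1 with the mean of probe sets (−0.026 with fibrils, −0.094 with oligomers, −0.023 in fibrillar against oligomeric arrays). Under median centring they turned for IARS2 (0.0022 with fibrils, −0.079 between the controls) and RARS2 (0.0067 for the difference of responses, −0.054 between the controls). They also turned for IARS2 with the covariate (−0.055, between the controls) and for YARS2 in fibrillar against oligomeric arrays without fibrillar replicate 3 (−0.011 to 0.34 without 1 array). In 300-base windows 8 members held the C/EBP-ATF core and 6 the YY1 core.

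Replicate numbers are shared between groups, but the labels do not pair them, and the correlation of deviations between same-numbered arrays was −0.02 to 0.09. With the replicate block 9 members were called lower between the controls, against 5 without it.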

Other observations

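Synthetases fall into 2 structural classes by the fold of the catalytic domain, and EPRS1 holds 1 domain of each. Sorted this way, a grouping chosen after the data had been seen, the 15 measured class II genes had a median of −0.25 in 24 h less 6 h controls. Of these 14 were negative and 3 (HARS1, GARS1 and TARS1) were lower. The 16 measured class I genes had a median of −0.05, with 10 negative and 2 (WARS1 and YARS1) lower. Among all genes 52.6% were negative and 7.92% were lower. In fibrillar arrays less 24 h controls the medians were 0.01 for class II and −0.01 for class I. The difference between the classes was not tested.

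Some dim probe sets of the members moved further than the brighter ones that stand for the genes. A probe set of EPRS1 with a mean log2 signal of 5.47 differed by −1.17 (SE 0.28, limma adjusted p = 0.0646 over all probe sets) in fibrillar arrays less 24 h controls, where the brightest one differed by 0.03 (SE 0.08). A probe set of LARS1 with a mean of 4.19 differed by 1.63 (SE 0.47, limma adjusted p = 0.0399 over all probe sets) in 24 h less 6 h controls, against 0.22 (SE 0.09) for the brightest. A probe set of RARS2 with a mean of 4.02 differed by 1.01 (SE 0.34, limma adjusted p = 0.0753) there, against 0.08 (SE 0.07). In 16 members that had further probe sets passing the low-value threshold, 15 of these 24 had the sign of the brightest one with fibrils, and 17 had it between the controls. Which transcripts each probe set reads was not examined.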
